A study of Mus musculus with 10 samples.

Results

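Binding sites of the homeodomain factor OTX2 were examined at 7 genes of the GATA and FOG families before and after endoderm formation: Gata2, Gata3, Gata4, Gata5 and Gata6, which encode GATA transcription factors, and Zfpm1 and Zfpm2, which encode the cofactors FOG1 and FOG2. They are 7 of 21900 protein-coding genes with a position in the mouse annotation used (RefSeq, GRCm38.p6, the assembly behind mm10). A peak was taken as a peak of one of these genes when its centre lay within 50 kb of either end of the gene, or when the authors' deposited table named the gene as nearest. This gave 54 of 42711 peaks in definitive endoderm (DE) and 3 of 6319 peaks in epiblast stem cells (EpiSCs). By position alone the numbers were 51 and 3, and these 2 numbers are used below unless stated.

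Peaks came from CUT&RUN, in which an antibody brings a nuclease to its target on chromatin and the DNA released there is sequenced. The groups used here were 2 anti-HA samples of EpiSCs and 2 anti-HA samples of DE, both from the line 7H OTX2-dTAG-EGFP (strain BL6/129 hybrid), in which OTX2 carries an HA epitope. As background served 3 EpiSC samples of the same line with IgG, and 1 anti-HA sample of DE from the parental line 5.8, which the labels do not describe as tagged. Each sample held 500000 cells. EpiSCs, a culture model of the epiblast, were kept in N2B27 medium that contained Activin A at 20 ng/ml, FGF2 at 12.5 ng/ml and NVP at 175 nM. DE cells were differentiated in CDM medium, where Activin A at 40 ng/ml was combined with CHIR at 3 µM during the first 16 h. Activin A was then raised to 100 ng/ml and LDN given at 100 nM during the last 24 h, and live DE cells were sorted using DAPI. Tagged EpiSCs and DE thus came from a single line, and the labels name no agent directed at the dTAG. Peak lists hold no expression values, so the labelled cell types could not be checked against marker genes.

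The authors deposited 1 list of HA peaks per state for both replicates together. Values below have no replicate spread, and no test between EpiSCs and DE was possible. The DE list was 6.76 times as long as the EpiSC list, and read depth is not known from the lists, so a site missing from the EpiSC list may lie below its detection limit. Of the 51 DE peaks and 3 EpiSC peaks at these genes, 0 and 0 overlapped a peak of the 4 background lists, which for the DE peaks allows a share of up to 5.88%, while 3 EpiSC peaks are too few to set a limit. Over the whole lists 35 DE peaks (0.0819%) and 50 EpiSC peaks (0.791%) did, so that a count of 0 at these genes is near the background and says little about them.

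GATA factors are zinc finger proteins that bind the sequence GATA and its flanks. GATA4, GATA5 and GATA6 act in endoderm and heart, with GATA4 and GATA6 also driving the primitive endoderm of the early embryo, whereas GATA2 and GATA3 are known chiefly from blood, trophoblast, ear and kidney. FOG proteins do not bind DNA on their own in this role. They dock on the N-terminal zinc finger of a GATA factor and bring in the NuRD and CtBP corepressors, so that the same GATA factor can activate or repress.

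All 7 had a DE peak within 50 kb, as did 82.8% of protein-coding genes. An EpiSC peak was present at 1 of 7, Zfpm1, against 40.8% of protein-coding genes. None of the 5 GATA genes and not Zfpm2 had one, so that 6 of 7 had DE peaks and no EpiSC peak, a state found at 42.3% of protein-coding genes. Within 100 kb Gata5 had EpiSC peaks too, so that 2 of 7 did. Gata1, a GATA factor gene outside the 7, had 5 EpiSC peaks within 50 kb. A DE peak was present at 5 of 7 by the names in the authors' deposited table, and with DE peaks limited to the 6319 widest, as many as in EpiSCs, 6 of 7 did, without Gata2. Gata6 had 12 DE peaks, Gata3, Gata4 and Zfpm1 had 9 each, Zfpm2 had 6, Gata5 had 4 and Gata2 had 2. Within 25 kb Gata5 had 1, Gata2 had 1 and Gata3 had 5. The median over the 7 genes was 9 DE peaks, against 3 over all protein-coding genes (interquartile range 1 to 6). With 1 list per state, the order of neighbouring genes in this series has no error attached to it.

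**Figure D1:**
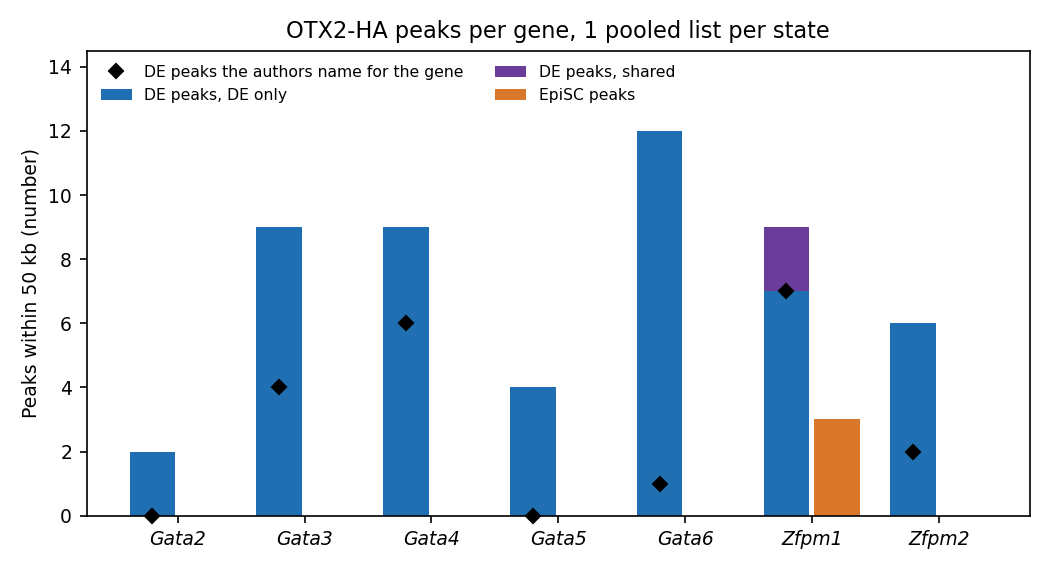
Number of peaks (vertical axis) with a centre within 50 kb of each gene (horizontal axis), 1 pooled list per state. Bars give DE peaks, divided into DE-only and shared, and EpiSC peaks, and diamonds give DE peaks that the authors' deposited table names for the gene; Gata6 has the tallest bar, 12, and Zfpm1 has both the 2 shared DE peaks and the 3 EpiSC peaks.

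The absence of EpiSC peaks was compared with other genes rich in DE peaks. Of the 2041 protein-coding genes with at least 9 DE peaks, 19.5% had no EpiSC peak, while 3 of the 4 such genes here (Gata3, Gata4 and Gata6) had none. The cut of 9 is the median of the 7 genes themselves, so it was set by these data and the comparison is a description. Among the 221 genes with exactly 12 DE peaks, as at Gata6, 35 had no EpiSC peak (15.8%), and the median was 3 EpiSC peaks. Among the 616 genes with exactly 9, as at Gata3, Gata4 and Zfpm1, 141 had no EpiSC peak (22.9%), and the median was 2. Gata2, with 2 DE peaks, was in the larger group, since 70.0% of the 2825 genes with that number had no EpiSC peak. For Gata5 and Zfpm2 the shares of genes with as many DE peaks and no EpiSC peak were 48.2% and 33.6%. Windows of neighbouring protein-coding genes can overlap, so the same peak can be counted at several genes. The shares of protein-coding genes given here are therefore not taken over genes with separate peaks. The part in them of how many other genes lie nearby was not tested.

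**Figure D2:**
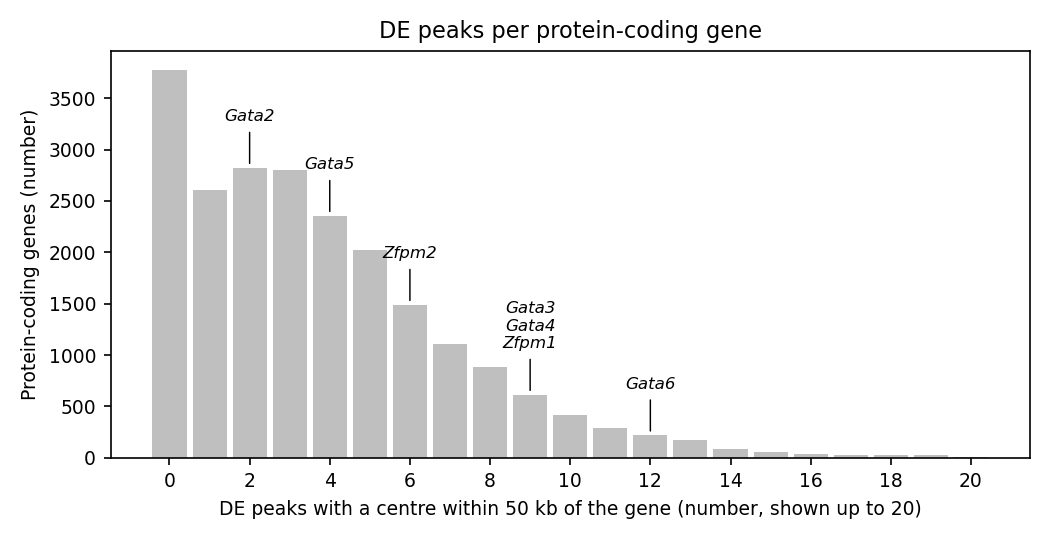
Histogram of protein-coding genes (number, vertical axis) by their DE peaks within 50 kb (horizontal axis, shown up to 20), with the 7 genes marked at their own count. Gata6 lies in the right tail, where 3.31% of genes had at least as many peaks, and Gata2 lies near the middle.

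Gata6, a driver of primitive and definitive endoderm, lies on chromosome 18 from 11052510 to 11085636. Its 12 DE peaks made 9.01 peaks per 100 kb of window, a density reached by 2.53% of protein-coding genes, whose median was 2.23. The widest of the 12 measured 326 bp (11052276 to 11052601) and spanned the left end of the gene, with its centre 72 bp outside; 7.26% of DE peaks were as wide. At this end Gata6 meets Gata6os, a long non-coding RNA gene on its left, and the peak reached into both. Inside Gata6 lay 4 peaks, of 87, 148, 244 and 70 bp from left to right. The right side held a group of 3 peaks with gaps of 170 and 340 bp, 83, 161 and 280 bp wide, at 11022 to 11874 bp from the gene. A pair of 109 and 88 bp lay on the left at 12375 and 11942 bp. The closest EpiSC peak was 169406 bp from the gene.

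Gata4, which acts with GATA6 in endoderm and heart, lies on chromosome 14 from 63198914 to 63271712. It had 9 DE peaks, 5 of them inside the gene (200, 65, 90, 140 and 89 bp from left to right). The last of these, at 63269395 to 63269483, lay closest to an end of the gene, its right end. Outside, 3 peaks lay on the left and 1 on the right, the widest being 260 bp (63177944 to 63178203), inside Fdft1. The authors' deposited table also assigned to Gata4 the 3 peaks that the 50 kb limit left out, at 54460, 64563 and 66884 bp to its right and 186, 229 and 549 bp wide. By RefSeq position Blk, a kinase gene, was nearer to all 3, at 46665, 36562 and 34241 bp. The last of these peaks, 63338322 to 63338870, was one of the widest, since 0.716% of DE peaks were as wide. The closest EpiSC peak was 122527 bp away.

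Gata5, expressed in heart and gut endoderm, lies on chromosome 2 from 180325088 to 180335503. It had 4 DE peaks and none inside the gene. The closest, 176 bp wide (180322958 to 180323133), lay 2043 bp to the left, which is the 3′ side, since the RefSeq promoter table places Gata5 on the minus strand. The widest, 288 bp (180275877 to 180276164), lay 49068 bp away inside Rbbp8nl, just within the limit. Gata5 was the one gene without an EpiSC peak at 50 kb whose result turned within 100 kb, the largest window tried. An EpiSC peak of 181 bp lay just outside, at 51425 bp, and within 100 kb there were 5 EpiSC peaks, all 5 overlapping a DE peak, beside 11 DE peaks. The authors' deposited table names these 5 for Lama5, Rps21 and Cables2. Among DE peaks, those just inside the 50 kb limit lay at 49068 bp (288 bp wide) and 48296 bp (75 bp wide) from Gata5 and at 48238 bp (84 bp wide) from Gata3, and those just outside lay at 50770 bp from Zfpm2 (138 bp wide) and 51438 bp from Gata5 (272 bp wide).

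Gata3, a factor of trophoblast, kidney and T cells, lies on chromosome 2 from 9857078 to 9887953 on the minus strand. Its 9 DE peaks measured 68 to 287 bp, with a median of 109 bp. Those inside the gene were 173 bp (9879598 to 9879770) and 83 bp (9882422 to 9882504) wide. The centre of the first lay at -1084 bp from the gene start in the promoter table (negative values are upstream; the annotated gene extends beyond that start), and no other peak of the gene was closer to it. The widest, 287 bp (9926422 to 9926708), lay 38612 bp from the gene inside Taf3, a subunit gene of the general transcription factor TFIID. The closest EpiSC peak was 265545 bp away.

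Gata2, a factor of blood stem cells and their progenitors, lies on chromosome 6 from 88193891 to 88207032 and had 2 DE peaks, both 125 bp wide. The first, 88189700 to 88189824, lay 4129 bp upstream of the first of 2 gene starts in the promoter table. The other, 88236107 to 88236231, lay 29137 bp beyond the right end, nearer to Dnajb8. At least 2 DE peaks were found at 70.9% of protein-coding genes, and 59.4% reached its density of 1.77 per 100 kb. The closest EpiSC peak was 258301 bp away.

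**Figure D3:**
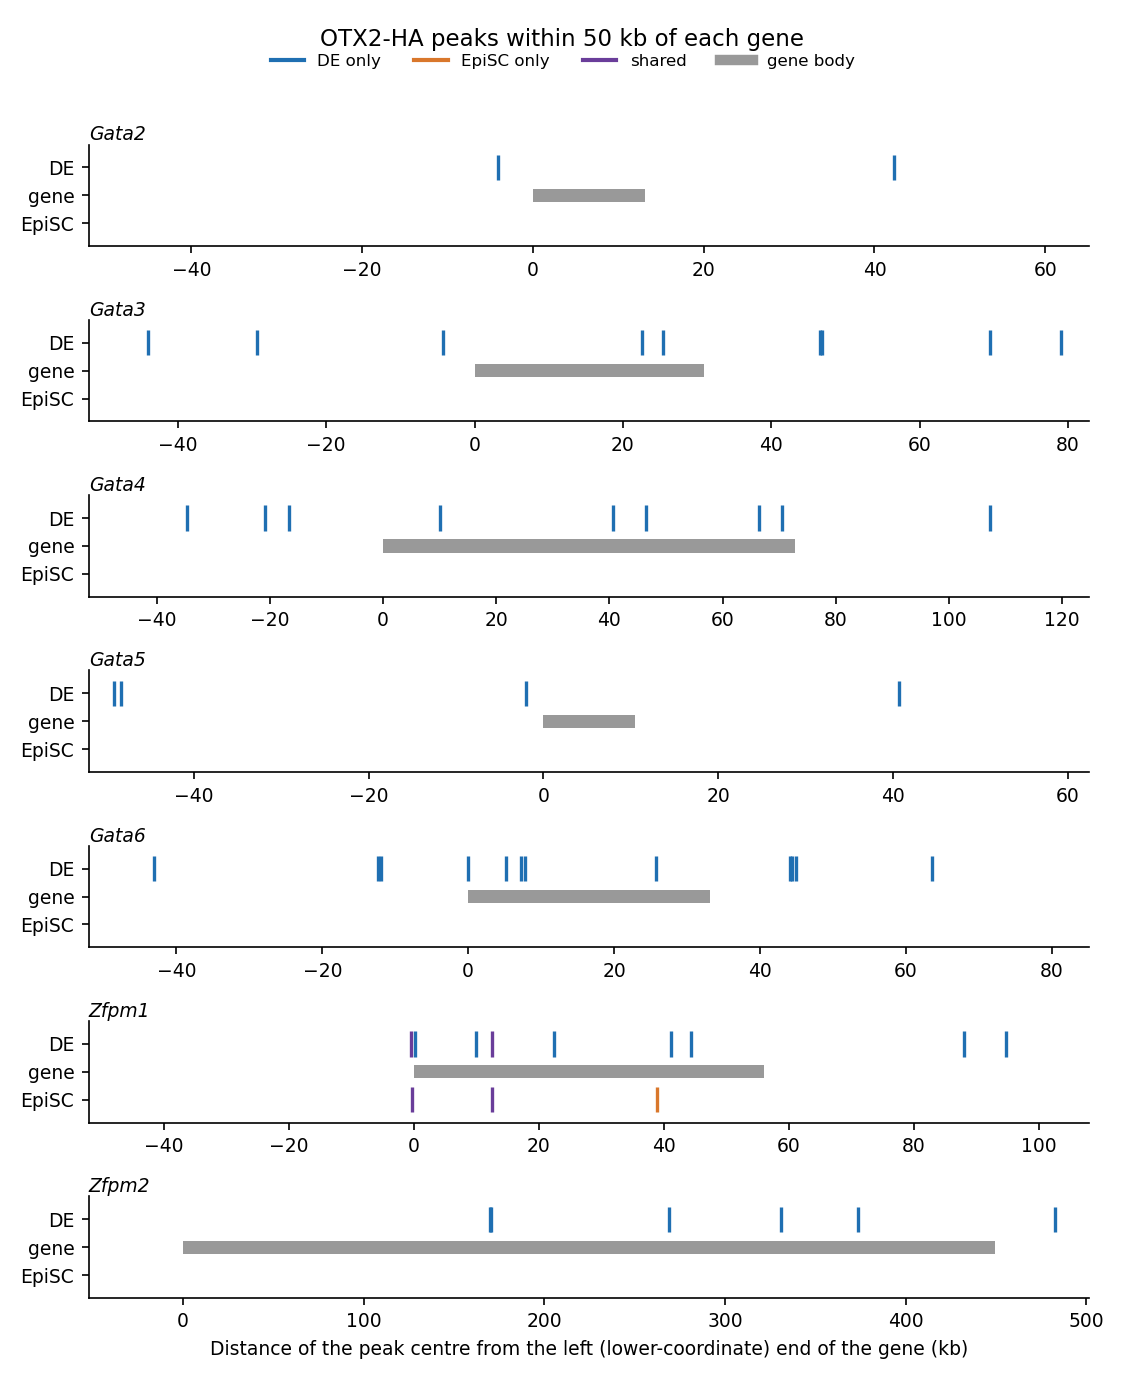
Peak centres by distance from the left end of each gene (kb, horizontal axis, 1 scale per gene), with DE peaks above and EpiSC peaks below the grey gene body, coloured by whether the peak is shared. EpiSC peaks appear at Zfpm1 and at no other gene, and the pairs and the group of 3 at Gata6 stand out as close lines.

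Zfpm1, the gene of FOG1, which is needed for red cell and megakaryocyte formation, lies on chromosome 8 from 122281856 to 122337862. It was the one gene here with EpiSC peaks, of which 2 of 3 were shared, where shared means that at least 1 bp lay under a DE peak. Shared EpiSC peaks made up 78.8% of the whole list (Wilson 95% interval for the 2 of 3, 20.8 to 93.9%). A shared EpiSC peak was present at 37.0% of protein-coding genes. With an overlap of 50% of both peaks, 1 of 3 was shared. The gene start in the promoter table, 122282141, lies inside the annotated gene. The first EpiSC peak (122281458 to 122281562, 105 bp) had its centre at -631 bp from that start and overlapped by 44 bp a DE peak of 179 bp (122281323 to 122281501). The second (122294307 to 122294470, 164 bp) lay inside the gene, within a DE peak of 278 bp (122294272 to 122294549), the widest of the gene. The third (122320700 to 122320847, 148 bp), also inside the gene, was EpiSC-only, and the nearest DE peak began 1987 bp further on. The remaining 7 DE peaks of Zfpm1 were DE-only and 81 to 251 bp wide. With the DE peaks limited to the 6319 widest, as many as in EpiSCs, Zfpm1 had 1 DE peak against 3 EpiSC peaks. In DE the upstream site thus had a second peak beside it, 375 bp away, of 164 bp (122281877 to 122282040). Its centre was at -183 bp from the start in the promoter table but inside the annotated gene.

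That second peak was the only peak at these genes that reached into one of their RefSeq promoter windows, each 250 bases before to 50 bases after a gene start. Windows were held for 4 of the 7 genes (5 windows, 2 of them for Gata2), and 1 of 5 was overlapped by a DE peak, against 18.3% of 32851 windows. The Zfpm1 window is shown because it lets the peak be read in sequence, with the 150 bases under the DE peak in capitals, beside the Gata3 window, which no peak reached. Both are given 5′ to 3′ on the strand of the gene, GRCm38.p6, Zfpm1 at chr8:122281891-122282190 (plus strand) and Gata3 at chr2:9878551-9878850 (minus strand).
Zfpm1: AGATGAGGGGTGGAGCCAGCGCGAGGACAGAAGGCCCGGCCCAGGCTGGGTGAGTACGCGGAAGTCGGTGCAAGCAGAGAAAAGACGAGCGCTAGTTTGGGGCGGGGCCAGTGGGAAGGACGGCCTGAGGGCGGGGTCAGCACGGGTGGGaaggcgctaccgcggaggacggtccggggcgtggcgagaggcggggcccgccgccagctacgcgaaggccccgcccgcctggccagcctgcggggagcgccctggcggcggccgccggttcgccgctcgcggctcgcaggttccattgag
Gata3: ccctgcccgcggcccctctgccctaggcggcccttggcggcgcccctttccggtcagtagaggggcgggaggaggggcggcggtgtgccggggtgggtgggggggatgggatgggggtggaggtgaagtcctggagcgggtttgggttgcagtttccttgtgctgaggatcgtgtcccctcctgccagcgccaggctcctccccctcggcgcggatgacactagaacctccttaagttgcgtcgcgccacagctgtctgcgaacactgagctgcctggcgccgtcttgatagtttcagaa
Both windows were rich in G and C, at 73.7% for Zfpm1 and 67.3% for Gata3, and the other 3 windows lay between 69.3 and 73.7%, against a median of 52.7% over all windows (interquartile range 45.7 to 61.7%). The bicoid-type motif TAATCC, the core preferred by OTX factors, was in 0 of the 5 windows on either strand, and in 7.06% of all windows. The GATA-type motifs AGATAA and TGATAA, which share GATAA with each other and whose last TAA can begin TAATCC, were likewise in 0 of the 5, and in 11.2% and 9.05% of all windows. A count of 0 in 5 windows allows a share of up to 60% and so sets these windows apart from the rest in no motif.

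Zfpm2, the gene of FOG2, a partner of GATA4 in heart and gonad, lies on chromosome 15 from 40655042 to 41104592 and is by far the longest of the 7, at 449551 bp. Its 6 DE peaks were spread over a window of 550 kb, 1.09 per 100 kb, a density that 68.6% of protein-coding genes reached. Inside the gene lay 5, the widest of 268 bp (40825256 to 40825523) beside one of 88 bp, 190 bp apart, and the sixth lay 33253 bp to its right. The number of peaks at Zfpm2 was thus above the median of protein-coding genes while the density was below it. The closest EpiSC peak was 1512322 bp away.

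Taking the genes together, 49 of the 51 DE peaks were DE-only. The 2 shared ones, 3.92% (Wilson 95% interval 1.08 to 13.2%, counting error only), are read against 11.7% of the whole DE list, which lies inside that interval. At the 5 GATA genes 0 of 36 DE peaks were shared, which allows a share of up to 8.33%, and at the 2 FOG genes 2 of 15 were. These values hold for 50 kb: within 100 kb Gata5 had shared peaks, and 8.70% of the DE peaks of the 7 genes were shared. The share was 10% of the 20 peaks in the window that the authors' deposited table names for the genes, and 14.3% of the 7 that were among the 6319 widest. Peaks of 1 gene are neighbours and not independent of each other, so these intervals are too narrow.

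Width was the only measure of size in the lists, and at these genes it was close to that of the lists as a whole. The 51 DE peaks had a median of 140 bp (interquartile range 88 to 209 bp), against 138 bp (93 to 209 bp) for the whole DE list. The 49 DE-only peaks had a median of 139 bp, against 129 bp for the DE-only peaks of the whole list, and the 2 shared ones measured 179 and 278 bp, on either side of the median of 224 bp for shared peaks. The narrowest was 65 bp, at Gata4, and 5 of 51 were narrower than any peak of the EpiSC list, whose minimum was 78 bp. By gene the median ran from 109 bp at Gata3 to 164 bp at Zfpm1. The 3 EpiSC peaks of Zfpm1 had a median of 148 bp, against 141 bp for the EpiSC list. Both shared sites were wider in DE than in EpiSC, as shared peaks were over the whole lists, with medians of 224 and 147 bp.

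**Figure D4:**
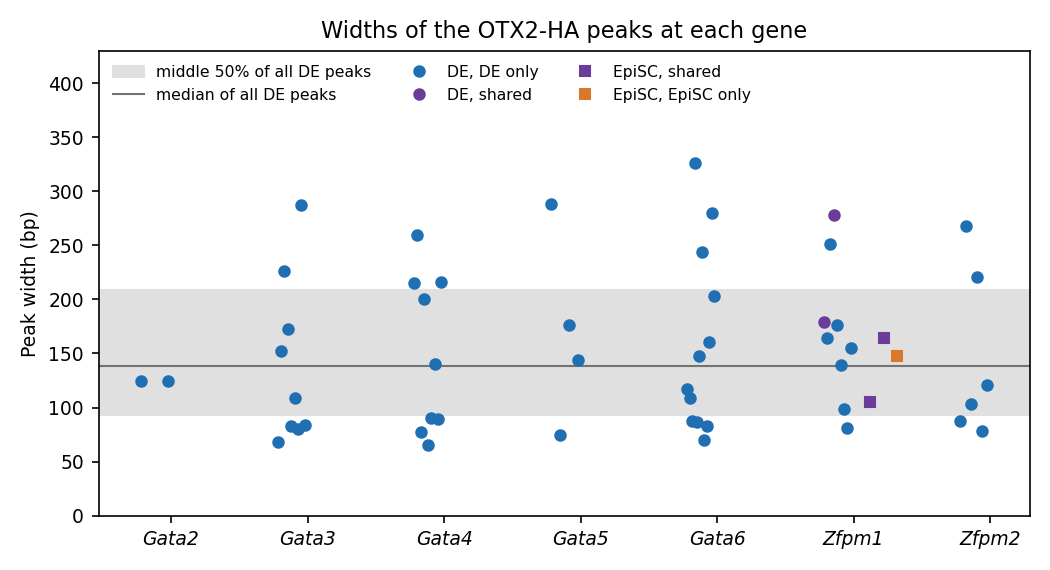
Width in bp (vertical axis) of each peak within 50 kb of each gene (horizontal axis), circles for DE and squares for EpiSC. The grey band and line mark the middle 50% (93 to 209 bp) and the median (138 bp) of the whole DE list, and each gene with more than 2 DE peaks has points above and below the line.

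Inside the body of their own gene lay 22 of the 51 DE peaks, and 29 lay outside. Inside any protein-coding gene lay 29 (56.9%, Wilson 95% interval 43.3 to 69.5%), against 46.6% of the whole DE list. Gata2 and Gata5 had none inside, and Zfpm1 had 6 of 9. Many peaks came in close groups: 15 of 51 (29.4%, 18.7 to 43.0%) had another DE peak centre within 1 kb, against 16.6% of the DE list. Of these, 7 were at Gata6 and 2 each at Gata3, Gata5, Zfpm1 and Zfpm2, while Gata2 and Gata4 had none. Close peaks are counted in pairs, so 15 peaks stand for fewer separate sites. Peaks of 1 gene are not independent, so the intervals in this paragraph are too narrow.

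The names in the authors' deposited table gave another picture from position. Of the 51 DE peaks, the table names the member gene for 20 and another gene for 31. At Gata6 it names Gata6 for 1 of 12 peaks, the one at its left end, and 1010001N08Rik, a synonym of Gata6os, for the other 11, including the 4 inside Gata6. At Zfpm2 it names 4930555K19Rik for 4 of 6, of which 3 lie inside Zfpm2. At Gata3 it names Gata3 for 4 of 9, and at Gata2 and Gata5 it names the gene for none. At Gata4 and Zfpm1 it names the gene for all peaks inside it, 5 and 6. Over the 7 genes, 8 of the 22 peaks inside a member were named for another gene, and over all DE peaks inside exactly 1 protein-coding gene the share was 32.3%. How the nearest gene was chosen is not given in the sources used here. By RefSeq position, the closest protein-coding gene was the member itself for 39 of the 51.

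Genes that work with GATA and FOG proteins were counted in 4 lists of 53 genes in all, and each was set beside the shares of all protein-coding genes given above (82.8% with a DE peak, 40.8% with an EpiSC peak). Of 6 other genes with GATA-type zinc fingers, 6 had a DE peak and 4 an EpiSC peak. Gata1, the erythroid factor, had 6 DE and 5 EpiSC peaks, Gatad2b, a NuRD subunit gene, had 5 and 2, and its paralog Gatad2a had 4 and 2. Trps1 and Zglp1 tied with Gatad2a at 4 DE peaks and had 0 and 4 EpiSC peaks. At Gata1, 3 of the 5 EpiSC peaks were shared.

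Of 13 NuRD and CtBP genes, whose products FOG proteins recruit, 12 had a DE peak and 9 an EpiSC peak, and the medians were 5 and 2. Chd3, a remodelling ATPase of NuRD, had 14 DE and 4 EpiSC peaks, Mbd3 had 10 and 5, and Mta2 had 9 and 6, all 6 of them shared. Mbd2 had none in either state. Of 14 DNA-binding and adaptor partners, 14 had a DE peak and 6 an EpiSC peak. Runx1, a blood factor, had 22 DE peaks and no EpiSC peak over a gene of 224609 bp, Tcf3 had 11 and 6, and Lyl1 had 10 and 3. The windows of Tcf3 and Mbd3 overlap, so the same peak can be counted at both genes and in both lists.

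Of 20 endoderm genes known as targets or partners of GATA4 and GATA6, 19 had a DE peak and 5 an EpiSC peak, with a median of 6.5 DE peaks and 0 EpiSC peaks. The pioneer factor gene Foxa1 had 12 DE peaks and no EpiSC peak, and its paralog Foxa2 had 11 and 2. Amn, which encodes a partner of cubilin in visceral endoderm, had none in either state. Counting each peak once within a list, since the windows of Col4a1 and Col4a2 overlap, there were 115 DE and 7 EpiSC peaks over these 20 genes, a ratio of 16.4. The partners had 83 and 18 (4.61), the NuRD and CtBP genes 73 and 29 (2.52) and the other genes with GATA-type zinc fingers 24 and 13 (1.85). The 7 GATA and FOG genes had 51 and 3, a ratio of 17, and the whole lists had a ratio of 6.76. The ratio at the 7 genes was 8.63 within 100 kb, 7.67 with the peaks that the authors' deposited table names for them and 6.67 with those of them inside the window, the last below that of the whole lists. It was 2.33 with DE peaks limited to the 6319 widest, where the lists are equally long. These are descriptions of 1 pair of lists. The lists differ in gene length and in how many other genes lie nearby, and the part of either in the counts was not tested.

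**Figure D5:**
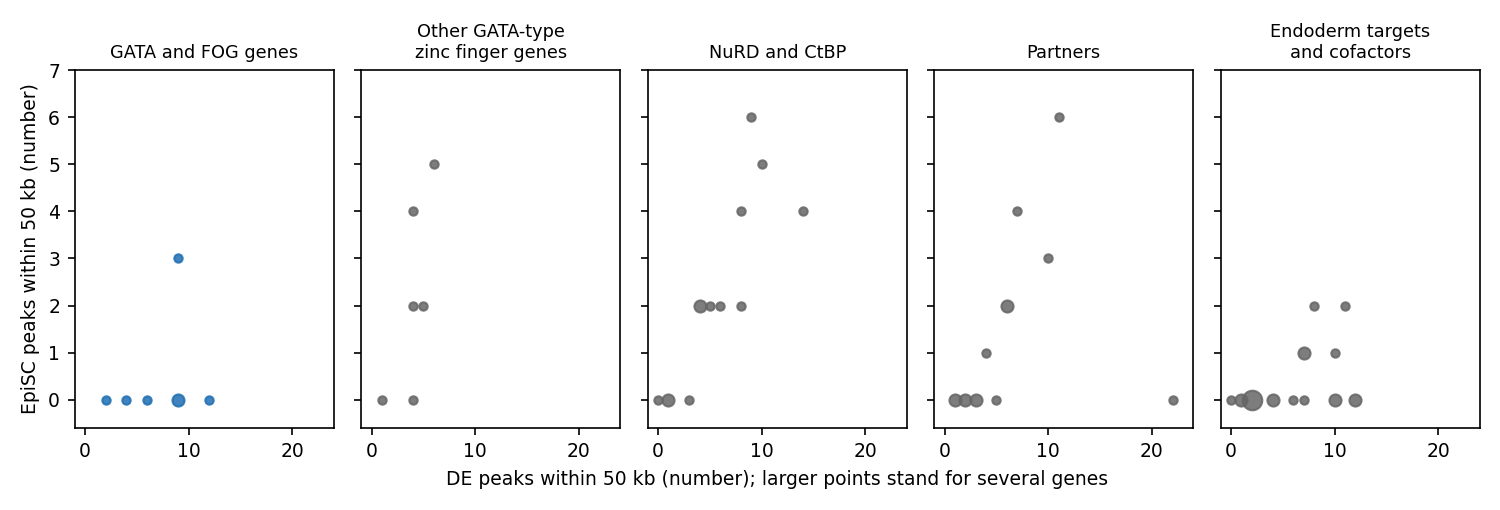
EpiSC peaks (vertical axis) against DE peaks (horizontal axis) within 50 kb for the GATA and FOG genes and for the 4 lists of related genes, 1 point per pair of counts. The GATA and FOG genes examined, other than Zfpm1, lie on the line of 0 EpiSC peaks, as do 15 of 20 endoderm genes, while 9 of 13 NuRD and CtBP genes lie above it. Gata1, plotted with the other genes with GATA-type zinc fingers, also lies above it, with 5 EpiSC peaks.

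The genes most like Gata6 were sought by 4 counts within 50 kb: DE peaks, EpiSC peaks, and the shared ones of each. Over the 2 pooled lists 34 other protein-coding genes had exactly the same counts, 12, 0, 0 and 0. They lie among the 35 genes, Gata6 included, given above with 12 DE peaks and no EpiSC peak. Without an EpiSC peak the shared EpiSC count is 0 by definition, so the shared counts add little. By the closest length the first 3 were Kcnj1, Cdh3 and Ghrhr, of 26780, 46060 and 12236 bp.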

How the data were processed

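CUT&RUN peak lists were analysed. Per the submitters' processing notes, Bowtie2 2.3.5.1, SAMtools 1.14, Picard 2.26.10, bedtools 2.30 and MACS2 2.2.6 were used with build mm10, in roles not given in the sources used here; the threshold and control of the HA peaks are likewise not given. Per the file names, HA peaks were merged over 50 bp. The lists hold positions and no score, and the tables with the nearest gene hold the same intervals (42711 of 42711 in DE, 6319 of 6319 in EpiSC). The columns on gene expression calls were not used, nor were IgG lists of DE cells or signal tracks. The label of 1 EpiSC HA sample names the DE list, and the DE IgG sample is labelled with files of DE HA. These 2 labels were taken as errors, and which samples each pooled list holds rests on that reading.

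Peaks (1-based) were assigned to RefSeq genes by centre within 50 kb, and shared peaks overlapped by at least 1 bp, in Python 3.11.15 with pandas 2.3.3 and SciPy 1.17.1. Functions were tested on simulated peaks. Of the 3 IgG lists, the third holds all 149 intervals of the second, so they are not independent. Gene starts and strands came from the promoter table, which has Gata2, Gata3, Gata5 and Zfpm1; for the other 3 genes only left and right ends were used.

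The genes and the lists were chosen with earlier results of these data known. Named were all 7 genes; of each list, up to 3 genes with the most DE peaks and those with no DE peak; the most frequent other gene nearest to a gene's peaks; 3 genes like the one with the most DE peaks; and, for each gene, all EpiSC peaks, the widest DE peak and the DE peak closest to the gene start. A gene of the endoderm list that the rule names is not reported here. Other single peaks were named after their values were seen. A share of 0 was given the limit of 3 counts. Pooled lists allowed no test.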

Additional observations from a re-analysis of the deposited data

How the results depend on the processing

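No paired analysis was possible because each state was deposited as 1 list pooled over its HA replicates, none of which could therefore be left out. Using the merged lists, removing background peaks and leaving out each IgG list in turn could move no value, since the intervals are equal and 0 peaks of these genes overlapped background. The remaining 9 alternatives gave 67 values. Of these, 55 stayed within 1.5 times (counts and ratios) or within the 95% interval of the value reported, which for shares is Wilson's and for the median DE width runs from 109 to 173 bp by order statistics (for the 3 EpiSC widths, their range), and 12 moved. Not all of the 55 could have moved: with the equal minimum width or the 6319 widest DE peaks the EpiSC list was unchanged. The EpiSC peak count, the genes with an EpiSC peak and the EpiSC median width were then fixed in advance. With a window of 100 kb there were 8 EpiSC peaks at 2 of the 7 genes, Zfpm1 and Gata5, and 8.63 DE peaks per EpiSC peak in place of 17. With peaks named for a gene in the authors' deposited table there were 23 DE peaks, with a median of 176 bp and a ratio of 7.67, and with those also inside the window 20 and 6.67. When DE peaks were cut to the 6319 widest (at least 259 bp), 7 were left at these genes, of which 14.3% were shared, with a median of 280 bp and a ratio of 2.33. This alternative selects on width: Gata6 then had 2 DE peaks, Gata2 had 0 and each other gene had 1, so that Zfpm1 had 1 DE peak against 3 EpiSC peaks and its direction turned. With an overlap of 50% of both peaks, 1.96% of DE and 33.3% of EpiSC peaks were shared, in place of 3.92% and 66.7%, so that 1 of the 2 shared sites of Zfpm1 was left; both shares lie within their wide intervals. The 25 kb window, the equal minimum width and sharing by centres within 500 bp moved none of these totals by that measure. By gene, the 25 kb window left Gata5 with 1 DE peak in place of 4, Gata2 with 1 in place of 2 and Gata3 with 5 in place of 9. Assigning peaks to the nearest protein-coding gene, chosen after seeing the data, moved no total either. The depth behind the lists is unknown, so an absent peak is a peak that was not detected.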

Other observations

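Within the windows of the 7 genes, 12 of the 51 DE peaks were nearer to another protein-coding gene. Taf3 was nearest for 4 peaks in the window of Gata3, and Fdft1, which encodes squalene synthase, for 2 in that of Gata4, with Neil2, a DNA glycosylase gene, for 1. Rbbp8nl was nearest for 2 in the window of Gata5, Gm39270 for 2 in that of Zfpm1, and Dnajb8, a chaperone gene, for 1 in that of Gata2. Gata6 and Zfpm2 had no such peak: at both, the gene itself was the nearest protein-coding gene for all of their 12 and 6 DE peaks.

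Without the 12 peaks nearer to another gene, Gata6 had 12 DE peaks, Zfpm1 7, Gata4 and Zfpm2 6 each, Gata3 5, Gata5 2 and Gata2 1. The gaps between adjacent DE peaks of a gene ran from 91 bp, between the 2 peaks at 9903657 and 9903857 near Gata3, to 109291 bp at Zfpm2, and 8 of 44 gaps were under 1 kb.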
